A study of Danio rerio with 85 samples.

Results

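The regions described here are stretches of the zebrafish genome at which both Rnf2 and H3K27me3 were found in wildtype embryos at 3 days post fertilization (dpf). They were chosen from the deposited peak lists. In each list peaks at most 1000 bp apart were merged and merged peaks that overlapped a peak of an input sample, which is chromatin sequenced without an antibody, were removed. The stretches shared by both wildtype Rnf2 lists were then kept where they overlapped, by at least 1 bp, a stretch shared by both wildtype H3K27me3 lists. This gave 530 regions out of 609 shared Rnf2 regions, and 79 shared Rnf2 regions had no shared H3K27me3. Among the 530, the smallest overlaps with H3K27me3 were 2, 2 and 9 bp. Among the 79, the closest lay 0, 13 and 14 bp from a shared H3K27me3 stretch, and 28 had H3K27me3 in 1 of the wildtype replicates.

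Polycomb group proteins keep developmental genes silent. Rnf2 (also called Ring1b) is the enzyme of Polycomb repressive complex 1 (PRC1) that places ubiquitin on histone H2A, while Polycomb repressive complex 2 (PRC2) places 3 methyl groups on lysine 27 of histone H3, the mark H3K27me3. Chromodomain proteins of canonical PRC1 bind this mark, and the *hox* clusters are the best known places where both complexes lie together over long stretches.

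ChIP-seq had been done on pools of deyolked 3 dpf embryos in a TU/TLF mixed background that carried the transgene *myl7:GFP*, which marks heart muscle cells. The wildtype pools had the genotype myl7:GFP_rnf2+/+ and the *rnf2* mutant pools myl7:GFP_rnf2-/-. There were 2 wildtype samples and 3 mutant samples (numbered 2, 3 and 4 in the labels) for each of 2 antibodies, RING1B (Cell Signaling D22F2) and H3K27me3 (Millipore 07-449), used per the labels with an H2Aγ antibody for *Drosophila* spike-in chromatin, and 1 input sample per genotype. RNA-seq at the same age was used for genes: 8 wildtype libraries (strain TLF) and 7 *rnf2*-/- libraries (TU/TLF mixed background) of whole embryos, and 10 wildtype and 9 mutant single hearts dissected from the *myl7:GFP* fish. The mutation had been inherited from heterozygous parents, so mutant embryos may still have had maternal Rnf2. In the whole embryos strain and genotype cannot be told apart.

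The H3K27me3 lists held 1031 to 2861 merged peaks after removal of input peaks, with mutant 3 the lowest, and the Rnf2 lists held 1049 and 1050 in wildtype against 18 to 38 in mutants. Mutant 3 stood apart from the other 4 H3K27me3 samples, with 728362 bp under peaks against 4638315 to 5584932 bp, and the main means over mutants below are also given without it. The sequencing depth of the ChIP samples is unknown. In whole embryos *rnf2* itself had 497 to 699 normalized counts in wildtype and 116 to 153 in mutants. In single hearts, with 27309 to 93653 transcript counts each, it had 0 to 9.86 normalized counts in wildtype and 0 to 4.18 in mutants, so that the groups overlapped. All 13 whole embryo markers were found, and their summed level was 147681 to 198379 in wildtype and 184821 to 204054 in mutants, most of it *krt4* and *mylpfa*. Single markers differed more than the sum. The liver marker *fabp10a* was called down, and 5 others had log2 fold changes of about 1 or more without passing the test: *myl7* (-1.33), *cryba1b* (-1.18), *col2a1a* (-1.17), *hbbe1.1* (1.23) and *hbae3* (0.99). Of the 5 heart muscle markers, *vmhc*, *myh6* and *nppa* fell and *tnnt2a* rose in mutant hearts. Of 15 markers of other cells that a dissected heart could hold, 14 were found and 1 was called, the skeletal muscle actin *acta1b*, which fell.

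The regions differed widely in size. Their width ranged from 2 to 59517 bp with a median of 1561 bp and quartiles of 476 and 3337 bp. Together they spanned 1410553 bp. There were 142 regions under 500 bp, which were 26.8% of all regions and held 2.66% of the bases, and 16 of them were under 100 bp. At the other end 81 regions of at least 5000 bp (15.3%) held 51.7% of the bases, and the 10 widest alone held 14.3%. The 79 shared Rnf2 regions without H3K27me3 were narrower, with a median of 218 bp.

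Fold enrichment is the ratio of a peak's reads over its control track as the authors' peak caller gave it, and the highest value over a region is used here. Because the regions were chosen as peaks in all 4 wildtype lists, these folds are a description. For Rnf2 the median was 4.09 in wildtype 1, with a range of 3.08 to 15.9, and 4.03 in wildtype 2, with a range of 3.10 to 14.9. The 79 regions without H3K27me3 had medians of 3.71 and 3.82. For H3K27me3 the medians over the 530 regions were 4.55 and 4.77. The lowest H3K27me3 folds were 3.20 and 3.52. For both antibodies most regions thus had folds not far above the lowest ones called, and a few narrow ones stood far above the rest.

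**Figure D1:**
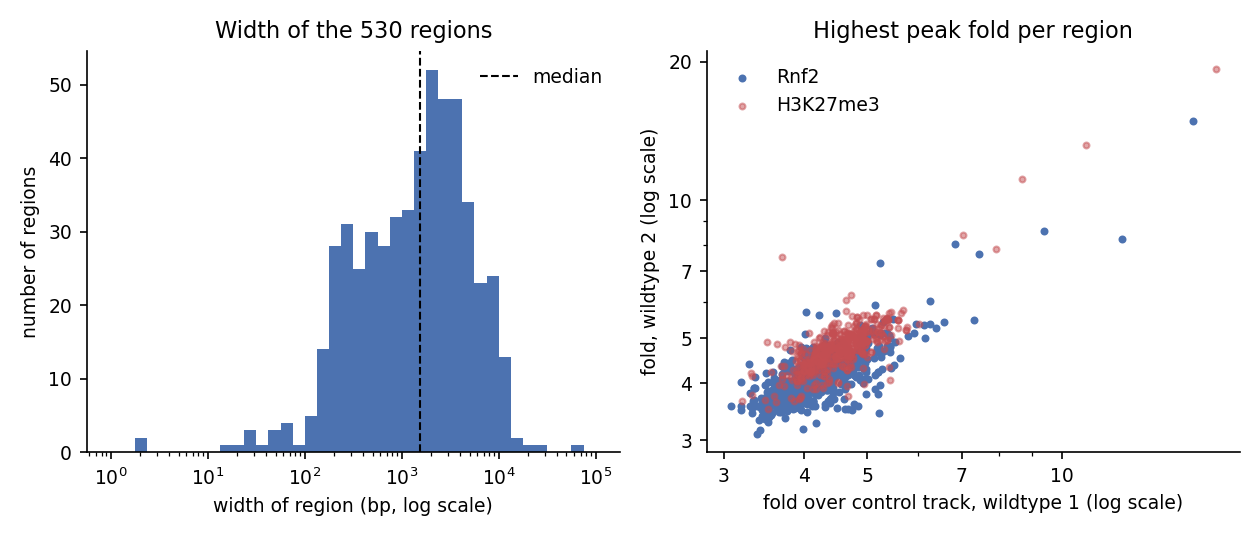
Left, a histogram of the width of the 530 regions in bp on a log scale, with the median of 1561 bp as a dashed line. Right, the highest peak fold of each region in wildtype 2 against wildtype 1 on log scales, with Rnf2 in blue and H3K27me3 in red. Most points lie between 3 and 7 in both replicates, and a handful reach past 10.

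In terms of H3K27me3, 1543 stretches were shared by both wildtype samples and are called domains here. Of these, 405 held at least 1 of the regions and 1138 held none. The latter are called domains without Rnf2, meaning without a shared Rnf2 region. Of the 1138, 117 (10.3%) still had an Rnf2 peak in wildtype 1 and 50 (4.39%) in wildtype 2. The domains with Rnf2 were wide, with a median of 5518 bp, against 736 bp for those without. Most regions (399, or 75.3%) lay wholly inside a single domain, and 131 reached past its edge. A domain held 1 region in 285 cases, 2 regions in 93, 3 regions in 20 and at least 4 in 7, with 8 as the most. Rnf2 covered 50.9% of a domain in the median case (quartiles 20.9% and 74.8%) and 50.4% of all domain bases. In 172 of the 285 domains with a single region (60.4%) the centre of the region fell in the middle 50% of the domain. The shared Rnf2 stretches thus took up part of a wider H3K27me3 stretch at most places. Their extent was set in part by the overlap of the replicates. Rnf2 peaks covered 68.5% of the domain bases in wildtype 1 and 55.2% in wildtype 2.

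The regions lay on all 25 numbered chromosomes and none lay on an unplaced scaffold. Of the 1138 domains without Rnf2, 8 lay on scaffolds, a count too small to make this a trait of the regions. Chromosome 5 had 41 regions, chromosome 3 had 37 and chromosome 9 had 35, while chromosome 10 had 6 and chromosome 4 had 5. Measured in bases, chromosome 9 held 8.34% of the total, chromosome 3 held 7.78% and chromosome 17 held 6.76%. The share of a chromosome's domains that held Rnf2 was lowest on chromosomes 4 (7.32%) and 10 (10.0%) and highest on chromosomes 11 (38.7%) and 9 (36.5%). These shares rest on 31 to 74 domains per chromosome for the 4 chromosomes named.

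Neighbouring regions often lay close together. Of 505 gaps between neighbours on a chromosome, 232 were under 10 kb and 260 were at most 50 kb, and the median was 31086 bp. When regions at most 50 kb apart were joined into groups there were 270 groups, of which 143 held a single region. The other 127 groups held 387 regions (73.0%), 26 groups held at least 4 and the largest held 16. Since peaks up to 1000 bp apart had been merged in each list, part of the spacing was set by that rule.

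The largest group held 16 regions on chromosome 3 (chr3:23515364-23645412, GRCz10), with 61.7% of its 130049 bp in regions. Groups of 10 lay on chromosome 19 (chr19:20146090-20215824) and chromosome 5 (chr5:71489409-71550293), and groups of 9 lay on chromosome 23 (chr23:35943954-36087553) and chromosome 24 (chr24:4936863-4979462). Groups of 7 lay on chromosome 9 (chr9:1935357-2007683) and again on chromosome 3 (chr3:54835358-54891117), and 4 groups of 6 lay on chromosomes 5, 14, 15 and 16. As background, the *hox* clusters of zebrafish lie on chromosomes 3, 9, 11, 12, 16, 19 and 23. No gene was placed in a region, because no annotation of the GRCz10 build was used here. The density of these groups differed: regions filled 54.7% to 70.4% of the span in the groups named on chromosomes 9, 19 and 23, the first on chromosome 3 and that of 6 on chromosome 16, against 8.14% to 43.5% in the other 6 groups.

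In *rnf2* mutants Rnf2 peaks were left at 3 of the 530 regions: at 3 regions in mutant 2, at 2 in mutant 3 and at 1 in mutant 4. Region 355 (chr16:7576772-7577019, 248 bp) kept a peak in all 3 mutants. Its Rnf2 fold was 15.9 and 14.9 in wildtype and 29.3, 21.9 and 12.5 in mutants 2, 3 and 4, so the genotypes overlapped. Its H3K27me3 fold was high as well, at 17.3 and 19.3 in wildtype and 35.5, 11.6 and 14.9 in mutants.

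Region 240 (chr11:1209374-1209666, 293 bp) had an Rnf2 fold of 7.45 and 7.65 in wildtype, 11.2 in mutant 2 and 6.02 in mutant 3, with no peak in mutant 4. Region 237 (chr10:12126107-12126284, 178 bp) had 12.4 and 8.22 in wildtype and 6.45 in mutant 2, with no peak in mutants 3 and 4. These 3 regions had the 3 highest mean Rnf2 folds in wildtype, all were under 300 bp, and whether the antibody detected Rnf2 there was not tested.

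The question for H3K27me3 was how much of it was still found at these regions when Rnf2 was lost. The H3K27me3 lists of the mutants were not used to choose the regions. A peak was present at 480 regions (90.6%) in mutant 2, at 217 (40.9%) in mutant 3 and at 500 (94.3%) in mutant 4, a mean of 75.3% ± 29.8 (SD, n = 3), or 92.5% without mutant 3. Most regions thus still had some H3K27me3 in 2 of the 3 mutants.

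Measured in bases, mutant H3K27me3 peaks covered 68.2% of the regions in mutant 2, 12.8% in mutant 3 and 88.3% in mutant 4, a mean of 56.4% ± 39.1 (SD, n = 3), or 78.2% without mutant 3. The wildtype lists covered 98.5% and 94.0%, values that the choice of the regions fixed, and so wildtype and mutant coverage was not tested. At least 50% of the region was covered at 411, 63 and 477 regions in mutants 2, 3 and 4. The 3 mutants differed among themselves by more than any of the comparisons below.

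The peak caller also marked strong cores, the parts of a broad peak that passed its narrower threshold. They covered 64.2% and 43.6% of the bases of the regions in wildtype and 23.8%, 0.945% and 37.04% in mutants 2, 3 and 4. All 3 mutants were below both wildtype samples, but the regions were chosen on wildtype peaks, which favours wildtype, and the difference was not tested. A strong core depends on the depth of a library, which is unknown, and the part of depth was not tested either.

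**Figure D2:**
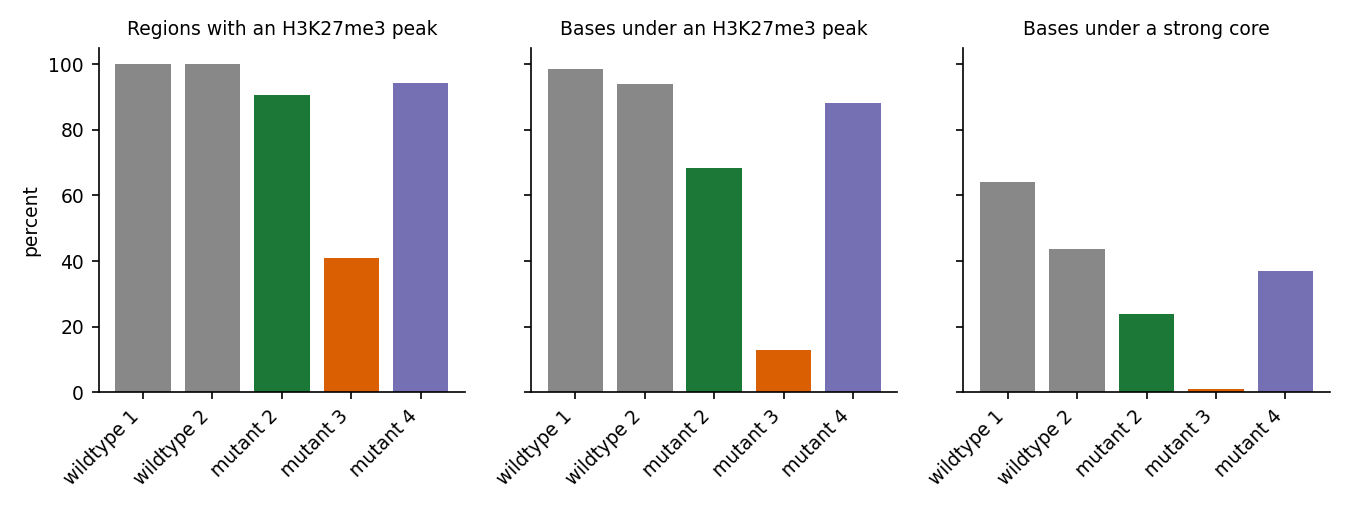
H3K27me3 over the 530 regions in each of the 2 wildtype and 3 *rnf2* mutant samples, in percent. Bars show the share of regions with a peak, the share of bases under a peak and the share of bases under a strong core, with 1 bar per sample and no error bar. Mutant 3 is the lowest in each panel, and the wildtype bars of the first panel are 100% because the regions were chosen on them.

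The mutant samples ranked the regions in a nested way. Every one of the 217 regions with a peak in mutant 3 also had a peak in mutants 2 and 4. A further 252 regions had a peak in mutants 2 and 4 only, 31 in mutant 4 only and 11 in mutant 2 only. The remaining 19 regions (3.58%) had none in any mutant. Their median width was 508 bp, with a range of 154 to 4066 bp, and their median wildtype H3K27me3 fold was 4.17 against 4.65 over all regions. Of the 19, 6 (31.6%) lay in groups of at least 6 regions, where 17.4% of all regions lay. Region 357 (chr16:18294067-18294243) had the highest wildtype H3K27me3 fold among them, 7.91 and 7.83. Region 489 (chr23:36028054-36032119, 4066 bp) was the widest of them.

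At the regions that still had a peak, the fold itself was not lower in mutants. The median of the highest H3K27me3 fold was 5.10 in mutant 2, 5.24 in mutant 3 and 5.75 in mutant 4, against 4.55 and 4.77 in wildtype. Region by region, the mutant value minus the wildtype mean had a median of 0.38 in mutant 2 (383 of 475 regions higher), 0.46 in mutant 3 (177 of 217) and 1.04 in mutant 4 (483 of 497). Folds are set against each sample's own background, and regions without a mutant peak drop out of this comparison. The lowest fold that was called a peak here was 3.72, 4.54 and 4.02 in mutants 2, 3 and 4, against 3.20 and 3.52 in wildtype. The higher fold was not particular to these regions. Domains without Rnf2 had medians of 3.84 and 4.09 in wildtype and 4.97, 5.05 and 5.21 in mutants 2, 3 and 4.

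Wide regions more often kept a peak. In mutant 2 a peak was found at 85.2% of the 142 regions under 500 bp, 87.1% of the 170 from 500 to under 2000 bp, 95.6% of the 137 from 2000 to under 5000 bp and 98.8% of the 81 of at least 5000 bp. In mutant 3 the shares were 23.9%, 36.5%, 50.4% and 64.2%, and in mutant 4 they were 90.8%, 90.6%, 99.3% and 100%. The share of bases under a peak did not rise in the same way. In mutant 2 it fell with width, at 81.3%, 75.9%, 74.4% and 61.7% over the same classes. In mutant 3 it was 15.8%, 16.5%, 14.6% and 10.4%, and in mutant 4 it was 88.1%, 85.01%, 89.4% and 88.5%, with no fall toward the widest class. A wide region has more bases at which a peak can be found, so the share with a peak and the share of bases measure different things.

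Coverage in the mutants was lowest where many regions lay together, a comparison that was chosen after the values were seen. Regions alone within 50 kb (143 regions) were covered to 82.2%, 17.9% and 91.2% of their bases in mutants 2, 3 and 4. Groups of 2 or 3 (231 regions) had 80.6%, 15.97% and 93.1%. Groups of 4 or 5 (64 regions in 15 groups) had 65.0%, 14.2% and 87.6%. The 11 groups of at least 6 (92 regions) had 36.4%, 1.79% and 78.3%. Counted by regions with a peak, these groups had 77.2%, 14.1% and 91.3%, against 92.3%, 52.4% and 93.7% for regions alone. The gap in mutant 4 was thus small by that count. The wildtype coverage of the same classes, 97.9% to 99.04% in wildtype 1 and 93.3% to 94.6% in wildtype 2, was held near 100% by the choice of the regions and is no contrast to the mutants.

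The difference between groups of at least 6 and regions alone was -45.8 percentage points in mutant 2, -16.1 in mutant 3 and -12.9 in mutant 4, with a mean of -24.9 ± 18.1 (SD, n = 3), or -29.4 without mutant 3 and -14.5 without mutant 2. All 3 mutants had the same direction. A two-sided exact sign-flip permutation test over the 3 mutants gave p = 0.25, the smallest p that 3 samples allow. Among regions of at least 2000 bp the mean difference was -26.1. Median wildtype folds in the groups of at least 6 were 4.14 and 3.97 for Rnf2 and 4.34 and 4.68 for H3K27me3, against 4.05, 4.12, 4.43 and 4.71 for regions alone. The strong cores of wildtype 1 covered 61.8% of the bases in these groups and 63.4% in regions alone, and those of wildtype 2 covered 38.9% and 41.6%. In mutants 2, 3 and 4 they covered 7.76%, 0.260% and 22.97% in the groups and 31.4%, 1.34% and 41.6% in regions alone.

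**Figure D3:**
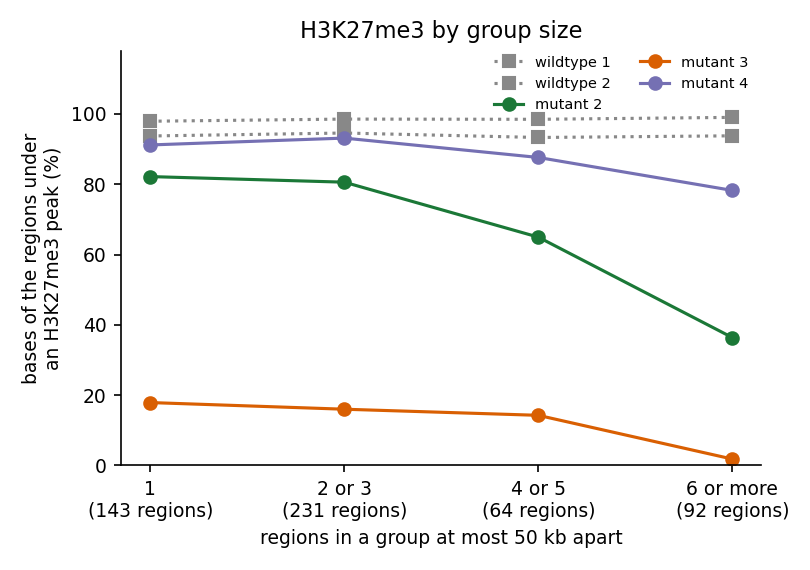
The share of bases of the regions under an H3K27me3 peak, in percent, by the number of regions in a group at most 50 kb apart, with 1 line per sample. Wildtype lines lie above 93%, which the choice of the regions fixes, and the lines of the 3 mutants are lowest at groups of at least 6, at 36.4%, 1.79% and 78.3%.

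The low coverage was not the same in every large group. In the group of 16 on chromosome 3, peaks covered 42.3%, 0% and 76.8% of the bases in mutants 2, 3 and 4, and in the group of 9 on chromosome 23 they covered 19.4%, 0% and 72.1%. The group on chromosome 9 had 22.4%, 2.18% and 75.9% and the group on chromosome 19 had 31.3%, 0% and 73.6%. By contrast the other group on chromosome 3 (chr3:54835358-54891117) had 75.3%, 9.83% and 98.7%. The group of 6 on chromosome 5 (chr5:34394692-34505049) had 76.7%, 12.2% and 98.5%. In mutant 2 the groups densely filled with regions were thus covered to 19.4% to 46.2%, and the other 6 to 35.7% to 76.7%.

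The widest regions differed among themselves. The 3 widest lie in the groups on chromosomes 23, 9 and 3 described above and are part of the same bases. Region 487 (chr23:35956291-36015807) was the widest at 59517 bp. Wildtype peaks covered 98.1% and 93.9% of it, and mutant peaks covered 20.8% in mutant 2, 0% in mutant 3 and 78.6% in mutant 4. Region 206 (chr9:1962181-1989402, 27222 bp) had 16.1%, 0% and 80.8% in the mutants. Region 69 (chr3:23582528-23605443, 22916 bp) had 37.8%, 0% and 54.9%. Outside these groups, region 94 (chr5:14696275-14709381, 13107 bp) had 74.3%, 15.1% and 99.7% and region 248 (chr11:3838560-3851586, 13027 bp) had 81.03%, 20.1% and 99.1%. Of the 10 widest regions, region 465 (chr21:45775191-45788194, 13004 bp) was the most fully covered in mutants 2 and 3, at 86.996% and 43.4%, with 86.8% in mutant 4. The highest fold in these wide regions was not low in the mutants that had a peak: region 487 had 4.45 and 4.97 in wildtype, 5.67 in mutant 2 and 6.45 in mutant 4.

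To see whether coverage in the mutants went with Rnf2, the 405 wildtype H3K27me3 domains with Rnf2 were set against the 1138 without. A mutant peak was present at 93.6% against 79.4% in mutant 2, at 59.3% against 27.9% in mutant 3 and at 96.3% against 81.6% in mutant 4. The mean difference was 20.1 ± 9.82 percentage points (SD, n = 3; exact sign-flip permutation p = 0.25, the smallest possible), or 14.4 without mutant 3. The 2 sets differ in width, and within width classes the difference was 1.49 under 1000 bp, -6.10 from 1000 to under 3000 bp and -3.90 at 3000 bp and more. The higher share with a peak was therefore not seen within the classes from 1000 bp up. Widths were not matched inside a class, and the class under 1000 bp held 33 domains with Rnf2 against 695 without. Wildtype H3K27me3 folds differed as well, with medians of 4.48 and 4.75 in domains with Rnf2 and 3.84 and 4.09 in those without. The part of width and of fold was not tested.

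Measured in bases, all domains with Rnf2 were covered to 71.5%, 14.0% and 86.6% in mutants 2, 3 and 4, and those without to 82.4%, 16.4% and 85.1%. The mean difference was -3.91 ± 6.31 (SD, n = 3; exact sign-flip permutation p = 0.5), or -4.69 without mutant 3 and -0.44 without mutant 2. The mutants did not agree in direction. Among domains of at least 3000 bp (298 with and 131 without Rnf2) the values were 72.1% against 90.2%, 14.1% against 21.8% and 87.3% against 93.8%, a mean difference of -10.7 (p = 0.25, exact), or -12.3 without mutant 3 and -7.08 without mutant 2. With groups of at least 6 regions left out it was -5.65, from 80.6%, 17.3% and 90.9% with Rnf2. In all 3 mutants wide domains with Rnf2 were thus less covered than wide domains without it, by a margin that shrank when the large groups were removed. The domains of this class with Rnf2 were also wider, with a median of 6965 against 4438 bp.

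**Figure D4:**
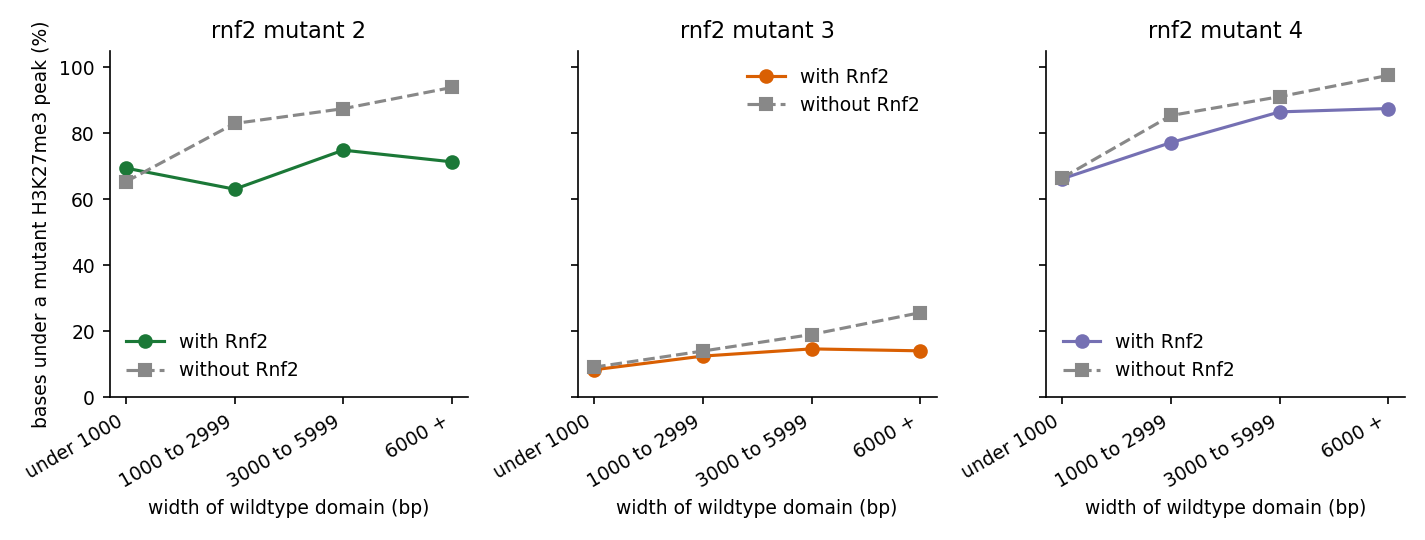
The share of bases of wildtype H3K27me3 domains under a mutant H3K27me3 peak, in percent, by domain width, for *rnf2* mutants 2, 3 and 4. Filled circles are domains with Rnf2 and grey squares are domains without. In the widest class, 183 domains with Rnf2 lie below 36 domains without it in each mutant.

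Inside the domains with Rnf2, the bases that Rnf2 covered in wildtype were compared with the other bases of the same domains. Mutant peaks covered 70.5% of the Rnf2 bases and 72.6% of the others in mutant 2, 13.5% and 14.5% in mutant 3 and 90.6% and 82.4% in mutant 4. The sign was thus not the same in the 3 mutants. Bases with and without Rnf2 in the same domain differed by less than the mutants did.

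For genes, no promoter was placed in a region, so 2 published lists stood in for them. The study had sorted promoters by their Rnf2 and H3K27me3 signal in these same ChIP samples into 5 clusters. Cluster 1 holds promoters with both and cluster 3 holds broad domains of both, while clusters 2, 4 and 5 have H3K27me3 with little Rnf2. The lists are therefore not independent of the ChIP data, and how many of the genes lie in the 530 regions was not tested. By name 125 of 200 genes of cluster 1 and 88 of 108 genes of cluster 3 were found, each name counted once, in the expression files. In these bulk libraries fewer cells of a type and less RNA per cell cannot be told apart.

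In whole embryos part of the broad cluster 3 was called up. Of its 86 tested identifiers 23 (26.7%) were called up and 0 down by limma, which here tested whether the log2 fold change exceeds 1, where over all 22685 genes tested 1.01% were called up and 0.908% down. The count of genes that were lower at an unadjusted p under 0.05 in this test was also 0, and edgeR and DESeq2 on recovered reads called 0 down. Over all 22685 genes 369 were lower at that cutoff, so 0 of 86 is near the share over all genes. The median log2 fold change (mutant over wildtype) was 0.74 with 70 of 86 above 0, against 0.03 over all genes. Of the 124 tested of cluster 1, 2 were called up and 2 down and the median was 0.07. Clusters 2, 4 and 5, with little Rnf2, had 3 of 169, 0 of 196 and 5 of 217 called up and 2, 3 and 2 called down. In cluster 4 the unadjusted p of this test was under 0.05 for 4 of 196 genes, of which 3 were lower, against 913 and 369 of all 22685 genes.

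The *hox* genes, which give cells their position along the body axis, made up much of this. All 29 tested *hox* identifiers of cluster 3 were higher in mutants, 14 were called up, and their median log2 fold change was 1.49. Without them 9 of 57 identifiers were called up, with a median of 0.34. The posterior gene *hoxb13a* had 10.5 to 43.5 normalized counts (median 31.5) in wildtype and 269 to 359 (median 315) in mutants. The groups did not overlap, and the log2 fold change was 3.50 (SE 0.22, limma adjusted p = 9.36e-08).

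Another posterior gene, *hoxc12a*, had 51.6 to 84.3 normalized counts (median 72.7) in wildtype and 390 to 608 (median 465) in mutants, a log2 fold change of 2.78 (SE 0.11, limma adjusted p = 2.46e-10). Its paralog *hoxc12b* had 11.2 to 23.8 in wildtype and 76.7 to 184 in mutants. The gene *hoxc10a* stands under 2 identifiers, with log2 fold changes of 2.88 and 2.43, and reads may have been split between them. Among anterior and middle *hox* genes the log2 fold change was 2.22 for *hoxd3a* and 1.69 for *hoxd4a*, both called, and 0.77 for *hoxb3a* and 0.75 for *hoxc6a*, which were not. The microRNA genes *dre-mir-10d* and *mir196c* of cluster 3 were also called up, at 2.59 and 2.38, the former not with a pseudocount of 5 (limma adjusted p = 0.145). As background, *mir-10* and *mir-196* genes lie within *hox* clusters.

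Of the subunits of PRC1 itself, 3 belonged to cluster 3. The PRC1 ring finger gene *bmi1a* had 175 to 247 normalized counts (median 221) in wildtype embryos and 1112 to 1512 (median 1265) in mutants, a log2 fold change of 2.56 (SE 0.08, limma adjusted p = 8.49e-12). Its paralog *bmi1b* and the chromodomain gene *cbx8a* had log2 fold changes of 1.06 and 1.16 and were not called. In hearts *bmi1a* had 0.692 to 5.28 normalized counts in wildtype and 11.4 to 29.4 in mutants, again with no overlap, and *bmi1b* was called up at 1.35.

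Among other transcription factors of cluster 3, *lbx1a*, which is used in muscle precursors and the dorsal spinal cord, had 26.6 to 64.9 normalized counts (median 53.5) in wildtype and 148 to 267 (median 196) in mutants. Its log2 fold change was 2.01 (SE 0.17, limma adjusted p = 0.000399). The blood and endothelial factor *tal1* had 113 to 180 (median 134) in wildtype and 347 to 481 (median 374) in mutants, with a log2 fold change of 1.51 (SE 0.10). For both genes all 7 mutant libraries lay above all 8 wildtype libraries. The red blood cell markers *hbbe1.1* (704 to 2105 in wildtype and 2479 to 4303 in mutants) and *hbae3* (2246 to 7216 and 7223 to 12798) did not overlap between the genotypes either, although neither was called, and their part in this result was not tested. In hearts the log2 fold change of *tal1* was 0.01 and it was not called.

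The T-box genes of cluster 3 (*tbx1*, *tbx4*, *tbx5a*, *tbx15*, *tbx18* and *tbx20*), several of which act in limb and heart formation, gave 0 calls among 6 in embryos by the same limma test. By edgeR and DESeq2 the count was also 0. In the limma test 1 of them had an unadjusted p under 0.05 for a log2 fold change beyond 1. Over all 22685 genes 1.01% were called up and 913 had an unadjusted p under 0.05 in that test, so 0 calls among 6 is near the share over all genes. Such a test does not show that changes below its threshold were absent. Of the 6, 4 were higher in mutants. Log2 fold changes were 1.35 for *tbx4*, 0.97 (SE 0.14) for *tbx5a* and 0.65 (SE 0.18) for *tbx20*. For *tbx5a* wildtype libraries had 33.7 to 80.5 normalized counts and mutants 94.99 to 127, so that all 7 mutants were above all 8 wildtypes although the threshold on fold was not passed. The heart factor *hand2* had a log2 fold change of -0.33 and was not called.

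In cluster 1 the 2 genes called up were *her7*, a gene of the segmentation clock, at 2.42, and *nkx2.2b*, a ventral neural tube factor, at 2.17. The Iroquois factor *irx4a* had 28.3 to 52.4 normalized counts (median 40.8) in wildtype and 3.95 to 15.2 (median 9.32) in mutants, a log2 fold change of -2.13 (SE 0.24, limma adjusted p = 0.00694). The hormone gene *trh* had 3.49 to 57.8 in wildtype and 0 to 12.6 in mutants, with a log2 fold change of -2.81, and here the groups overlapped. Its call was lost with a pseudocount of 5 (limma adjusted p = 0.531) and with wildtype libraries 1 to 5 only (0.245). The heart factors *gata4* (0.47), *gata5* (0.14) and *nkx2.5* (-0.42) were not called. The heart muscle marker *myl7* had 220 to 323 normalized counts in wildtype and 80.4 to 136 in mutants, and the liver marker *fabp10a* was called down at -1.83, and their part in these results was not tested.

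**Figure D5:**
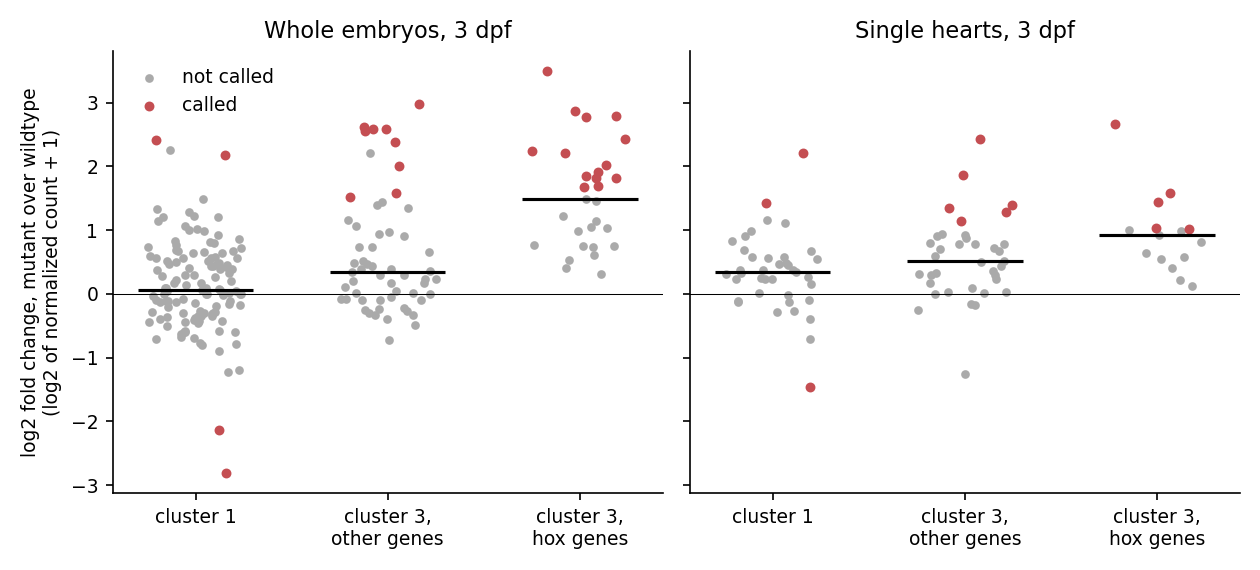
The log2 fold change (mutant over wildtype, on log2 of normalized count plus 1) of the genes of clusters 1 and 3 in whole embryos (left) and single hearts (right) at 3 dpf, 1 point per identifier, red where called and grey where not, with the median as a bar. The *hox* genes of cluster 3 have a median of 1.49 in embryos, above the other cluster 3 genes at 0.34 and cluster 1 at 0.07.

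In hearts at 3 dpf 11 of 52 tested genes of cluster 3 (21.2%) were called up and 0 down by limma at an adjusted p under 0.01, where over all 11221 genes 2.96% were called up and 2.4% down. A single gene was lower at an unadjusted p under 0.05, against 976 of all 11221, and edgeR on recovered counts called 1 down. The median log2 fold change was 0.66. In 8 of the 52 genes all 10 wildtype hearts were listed at 0, and the fold of such a gene depends on the pseudocount. The paper kept only genes expressed in a minimum share of the hearts of an age. These 8 genes thus entered through mutant hearts alone and could only rise, and 3 of them were among the 11 called. Without these 8 the median was 0.59 and 8 genes were called up. Among the called genes that were left, *hoxd9a*, *eng1b* and *hoxb6a* were at 0 in 9 of 10 wildtype hearts. They too could pass the filter only through mutant hearts, so the share called up still rests in part on such genes. Of the 15 *hox* genes 5 were called up, *hoxd9a* and *hoxb6a* among them.

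The largest rise was that of *hoxd9a*, which was listed at 0 in 9 of 10 wildtype hearts and at 1.90 in the other, and had 1.71 to 12.1 normalized counts (median 6.44) in mutants. Its log2 fold change was 2.66 (SE 0.36, limma adjusted p = 3.94e-09) and depends on the pseudocount, being 5.47 with a pseudocount of 0.1 and 4.80 by edgeR. The midbrain and hindbrain boundary factor *eng1b* (1.86) and *hoxb6a* (1.58) were likewise at 0 in 9 of 10 wildtype hearts, and with a pseudocount of 0.1 their log2 fold changes were 4.45 and 3.87. All of *hoxd9a*, *eng1b* and *hoxb6a* could pass the paper's filter on expressed genes only through mutant hearts. Their rise was thus fixed in advance, and the p-value is no support for it. The endothelial factor *etv2* (1.39) rose from a level already present in wildtype. In embryos *hoxd9a* had a log2 fold change of 1.14 and *eng1b* of 0.30, and neither was called.

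Of 39 tested genes of cluster 1 in hearts, 2 (5.13%) were called up and 1 (2.56%) down, where 2.96% and 2.4% of all genes were. The heart factor *nkx2.7* had 0 to 5.73 normalized counts (median 1.35) in wildtype and 4.18 to 15.8 (median 9.13) in mutants, a log2 fold change of 2.22 (SE 0.34, limma adjusted p = 1.22e-07). The forebrain factor *emx2* had a log2 fold change of 1.42. The epicardial gene *tcf21* had 0 to 9.71 in wildtype and 0 to 1.86 in mutants, a log2 fold change of -1.46 (SE 0.37), and these groups overlapped. With a pseudocount of 0.1 it was not called (limma adjusted p = 0.0477). Clusters 2, 4 and 5 had 8 of 66 (12.1%), 3 of 67 (4.48%) and 7 of 92 (7.61%) genes called up and 3, 1 and 3 called down. In hearts a share called up above that of all genes was thus also found in lists with little Rnf2. T-box genes of cluster 3 gave 0 calls among 5 by limma, with 4 at an unadjusted p under 0.05 and 1 by edgeR. Over all 11221 genes 2420 had an unadjusted p under 0.05. With 2.96% of all genes called up, 0 calls among 5 is near the share over all genes. Among them *tbx5a* had a log2 fold change of 0.78 in hearts (SE 0.35, limma adjusted p = 0.158) and was not called. The genes *tbx2a*, *tbx2b* and *tbx3a* were not among those counted, and their levels are not given here. The paper reports *tbx2a*, *tbx2b*, *tbx3a* and *tbx5a* as higher in mutant hearts. Of the genes listed as skeletal muscle markers, *acta1b* fell by 1.63 on the log2 scale in the same hearts. The log2 fold changes of *mylpfa* (-0.52) and *myhz2* (-1.35) were not called. The summed level of all markers of other cells was 228 to 1087 in wildtype and 221 to 775 in mutants. The part of neighbouring tissue in these results was not tested.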

How the data were processed

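ChIP-seq, whole embryo RNA-seq and single heart RNA-seq of wildtype and *rnf2* mutant zebrafish at 3 dpf were used, and hearts at 1 and 2 dpf were not. The regions and gene lists were chosen with earlier results of these data known. ChIP-seq reads had been aligned to GRCz10 with BWA 0.7.15 by the authors, who removed reads at random by spike-in counts and called broad peaks with MACS2 2.1.1, and the deposited lists give for each peak a fold (a ratio over the control track) and -log10 p and q values. Labels and design text differ on which samples had the spike-in, and the antibody peak lists of all pools but wildtype 2 are marked as normalized. The peaks were deposited per sample. Whole embryo reads had been aligned with STAR 2.5.2b, and the authors deposited reads per gene divided by size factors of DESeq2 1.16.1, a signal. For hearts they deposited transcript (UMI) counts divided by 1 size factor per heart, a signal, and 2 mutant hearts, whose lowest values showed no common step, are kept as a score and were left out of edgeR.

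Peaks were merged, filtered and intersected in Python 3.11.15. Covered bases were counted against merged peaks. Whole reads came back for 100% of values, with 4711185 to 12585927 reads per embryo library, and expression was tested on log2 of the normalized count plus 1 with limma 3.58.1 in R 4.3.3, for embryos against a log2 fold change of 1 (adjusted p at most 0.1, genes with a mean of at least 5) and for hearts at an adjusted p under 0.01, all adjusted by Benjamini and Hochberg over all genes. On recovered reads edgeR 4.0.16 called 413 genes up in embryos and DESeq2 1.42.0 called 254. In tests on simulated data 65% of 4-fold and 95.5% of 8-fold changes were recovered in embryos and 89% and 99% in hearts. Named genes were the 10 with the largest rise and fall among those called in embryos, the 5 and 5 in hearts, and a list of heart and Polycomb target genes from the study and textbooks, not all of which are reported here. The genes *her7*, *nkx2.2b*, *emx2*, *etv2*, *fabp10a*, *rnf2*, *mir196c* and the *hox*, T-box and PRC1 genes beyond these were named after their values were seen. Embryo libraries that share a number in the labels correlated at -0.03, -0.16, -0.06 and 0.03, so that numbers did not pair them. Nothing says whether libraries came from separate parents, so p-values measure the spread between these samples. Columns of the authors' own comparisons were not used. Intervals for counting error were not computed, as depth of the ChIP samples is unknown.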

Additional observations from a re-analysis of the deposited data

Results flagged for a closer look

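In 9 of 81 groups of libraries tested for the named genes, 1 library stood apart from the others of its group on the log2 scale. Chance alone would flag about 1 in 20 groups. That rate does not hold for *hoxd9a*, *eng1b* and *hoxb6a* in wildtype hearts, where 9 of 10 hearts were at 0. In whole embryos *eng1b* had 137 normalized counts in mutant 2 with the nearest mutant at 166, *hoxb6a* had 58.2 in wildtype 3 with the nearest at 74.5, and *gata4* had 12.3 in wildtype 5 with the nearest at 26.6. In hearts a single wildtype heart had a count above 0 for *hoxd9a* (1.90 in heart 17), *eng1b* (1.64 in heart 18) and *hoxb6a* (1.32 in heart 16), where the nearest other heart was at 0. Heart 18 also had the highest wildtype *gata5* (49.3, nearest 35.6) and was the only wildtype heart at 0 for *nkx2.5* (nearest 2.64). Mutant heart 36 had 3.14 for *tbx20* with the nearest mutant at 0.919.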

How the results depend on the processing

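The number of regions was 530, 352 when peaks up to 3000 bp apart were merged and 242 under a stricter threshold on the q value. With no merging it was 764, with the union of the wildtype replicates 716 and with input peaks left in place 701. It was 508 when 50% of the region had to overlap, and 538 to 586 when a wildtype sample was left out. The share with a mutant peak was 75.3%, and 65.8% to 92.5% when a mutant was left out, and the covered share of bases was 40.5% to 78.2%. The difference in share with a peak between domains with and without Rnf2 was 20.1 percentage points, 6.54 under the stricter threshold, 5.84 when 50% of the domain had to be covered, 1.49, -6.10 and -3.90 within the 3 width classes, and 14.4 to 23.03 without each mutant. The difference in covered bases was -3.91 over all domains and -10.7 at 3000 bp and more, -14.7 at 6000 bp and more, -14.9 and -13.2 at wildtype folds under and over 4.5, and -12.0 with peaks as deposited, while leaving out a mutant over all domains gave -6.60 to -0.44, the weakest without mutant 2, and at 3000 bp and more -12.9 to -7.08. Groups of at least 6 against regions alone differed by -14.5 to -30.9 without each mutant and by -24.6 to -26.3 in the other settings. Settings added after seeing the data are those on groups, on covered bases by domain, on *hox* genes and on regions of at least 500 bp (78.4% with a peak). Cluster 3 had 23 genes called up in embryos, 35 by limma without the fold threshold in the test and 9 without *hox* genes, and clusters 1 and 3 together had 27 called, or 52 by that limma test. In hearts 14 genes of both clusters were called, and 11 to 18 in other settings. A replicate block on the 8 embryo libraries whose numbers occur in both genotypes gave 21 called genes in clusters 1 and 3, also 21 without the block on the same libraries, and 249 against 246 over all genes. No library correlated best with its own number. Of 224 fits of 41 named gene results, 9 changed a call, in *si:ch211-203l7.3*, *dre-mir-10d*, *trh*, *hoxd9a* (embryos) and *tcf21*. Direction was checked only where the gene was called in the main or the other setting, and 0 of these fits changed it. Placement of promoters in regions was not run, for want of a GRCz10 annotation here. The unknown ChIP depth limits every statement on mutant coverage, because a shallow library yields fewer and narrower peaks, and peaks were called per sample.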
